A study of Mus musculus with 24 samples.

Results

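Pick1 encodes PICK1, the protein that the inhibitor given to one group of mice in the study is aimed at, and 7 further genes encode its closest BAR-domain relatives and partners: Ica1, Ica1l, Arfip1, Arfip2, Grip1, Grip2 and Prkca. The 8 genes were chosen by name, without use of their values, from the 45706 genes of the deposited table, and all 8 passed the filter on low counts that left 15667 genes for testing. The RNA came from the whole hypothalamus of male diet-induced obese mice, which averaged 53 g and were housed in pairs. Every mouse received a daily injection for 5 days and was killed 2 h after the last one. The saline group got isotonic saline, the PSD-95i group got 25 mg/kg UCCB01-147, an inhibitor of PSD-95, and the PICK1i group got 56 mg/kg mPD5, an inhibitor of PICK1. Each group holds 8 libraries, although the treatment protocol counts 6 mice for saline; the sources used here state neither strain nor age nor route. The doses of the inhibitors differ, so differences between the inhibitor groups also carry that difference in dose. The labels do not say outright that each library is a separate mouse, and p-values measure the spread between these libraries.

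PICK1 joins a PDZ domain, which grips the last residues of membrane proteins such as the AMPA receptor subunit GluA2, to a BAR domain, a curved dimer that binds bent membrane. Through its BAR domain PICK1 pairs with ICA69, the product of Ica1, and in neuroendocrine cells such pairs sit on immature secretory granules. Arfaptins share the crescent-shaped fold and bind small GTPases of the Golgi, GRIP1 and GRIP2 are multi-PDZ scaffolds that bind the same receptor tail as PICK1, and protein kinase C alpha was the first ligand found for PICK1.

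Library totals ranged from 4762703 to 9228858 estimated counts, and each of the 8 genes drew between 54 and 817 counts per library. Hypothalamic neuron markers were present in every group (15 genes, together at 1550 CPM or more, where CPM are counts scaled to library size). Their sum was 15022 and 17886 CPM in saline replicates 2 and 3 and at most 2324 CPM in the other 22 libraries. General neuron markers (6 genes) were lowest in the same replicates, at 2118 and 2351 CPM, against 2610 CPM or more in the other 22. The higher sum of the hypothalamic list, which includes Pomc, is therefore not a measure of neuron content there. Saline replicates 2 and 3 carried anterior pituitary transcripts. Growth hormone mRNA stood at 52238 CPM in replicate 2, at 31688 CPM in replicate 3 and at 41.4 CPM or less in the other 22. PICK1i replicates 1, 2, 5 and 6 had 13.5% to 16.6% of their counts on mitochondrial genes, against 7.88% to 11.2% in the other 20 libraries, and a length tilt (the slope of a library's log2 deviations on log2 transcript length) of -0.17 to -0.10, against -0.02 to 0.09. PICK1i replicate 6 also had a summed level of 322 CPM for 7 markers of cortex and hippocampus neurons. Saline replicates 6 and 7 had 109 and 46.3 CPM of these, and the remaining libraries 21.7 CPM or less. In bulk tissue, fewer cells of a type and less RNA per cell cannot be told apart.

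Per transcript length, Arfip2 and Pick1 were the most abundant of the 8 genes and Grip1 the least. These levels sum all annotated transcripts of a gene, coding or not, so the order is not one of protein-coding mRNA. In saline, transcripts labelled protein coding held, per length, 47.9% of Arfip2, 42.8% of Pick1, 85.8% of Ica1l and 43.6% of Ica1. They held 96.3% of Prkca, 45.2% of Grip2, 100% of Arfip1 and 45.4% of Grip1. In saline the mean was 91.3 ± 6.43 TPM (counts divided by transcript length and scaled to the library; SD, n = 8) for Arfip2, 67.2 ± 4.89 for Pick1, 34.4 ± 6.15 for Ica1l and 26.7 ± 2.85 for Ica1. Prkca followed at 23.2 ± 1.75 TPM, Grip2 at 18.2 ± 4.92, Arfip1 at 16.4 ± 4.97 and Grip1 at 8.07 ± 1.31. Arfip2 exceeded Pick1, Pick1 exceeded Ica1l and Arfip1 exceeded Grip1 in 24 of 24 libraries, and the saline ranges of these neighbours did not overlap. The ranges of Ica1l and Ica1, Ica1 and Prkca, Prkca and Grip2, and Grip2 and Arfip1 did overlap, so the middle of the order is not separated beyond the spread. By mean TPM, Arfip2 stood at the 88.8th percentile of the tested genes, Pick1 at the 84.3rd, Arfip1 at the 47.9th and Grip1 at the 30.2nd.

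**Figure D1:**
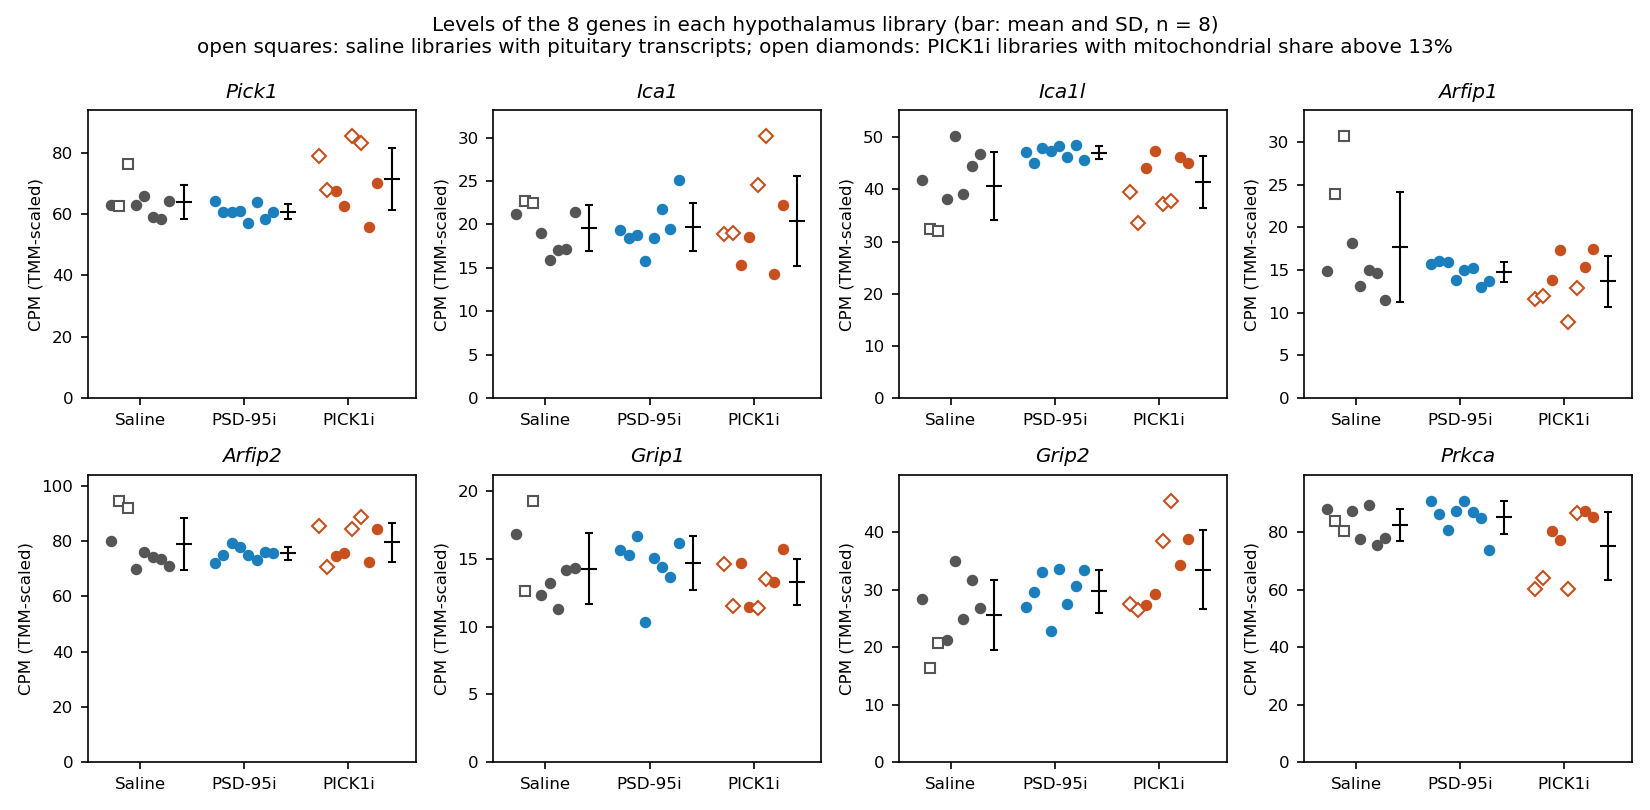
Level of each gene (vertical axis, CPM scaled by TMM, from 0) in every library of the 3 groups, with the mean and SD (n = 8) beside each group; open squares are saline replicates 2 and 3 and open diamonds PICK1i replicates 1, 2, 5 and 6. Arfip1 stands at 23.9 and 30.6 CPM in the open squares and at 11.5 to 18.1 CPM in the other saline libraries, and the groups overlap for every gene.

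None of the 8 mRNAs passed the test in any comparison. Against saline, PICK1i called 0 of 8, while 9.15% of all tested genes were called (1434 of 15667, edgeR quasi-likelihood test, Benjamini-Hochberg adjusted p under 0.05). Before adjustment 3 of the 8 (37.5%) had p under 0.05, against 28.8% of all genes, and the members' median log2 fold change was 0.02, against -0.01 over all genes. For PSD-95i against saline, 0 of 8 and 0% of all genes were called by edgeR; 1 of 8 had an unadjusted p under 0.05, against 11% of all genes, and DESeq2 also called no gene. For PSD-95i against PICK1i, 0 of 8 and 0% of all genes were called by edgeR, with 3 of 8 at an unadjusted p under 0.05 against 24.2% of all genes; DESeq2 called 1359 genes there, among them Pick1. The groups overlapped for all 8 genes in every comparison; over all genes 0.179%, 0.0574% and 0.0511% did not overlap. Each pair of comparisons shares a group of libraries, so the 3 sets of values are not independent.

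**Figure D2:**
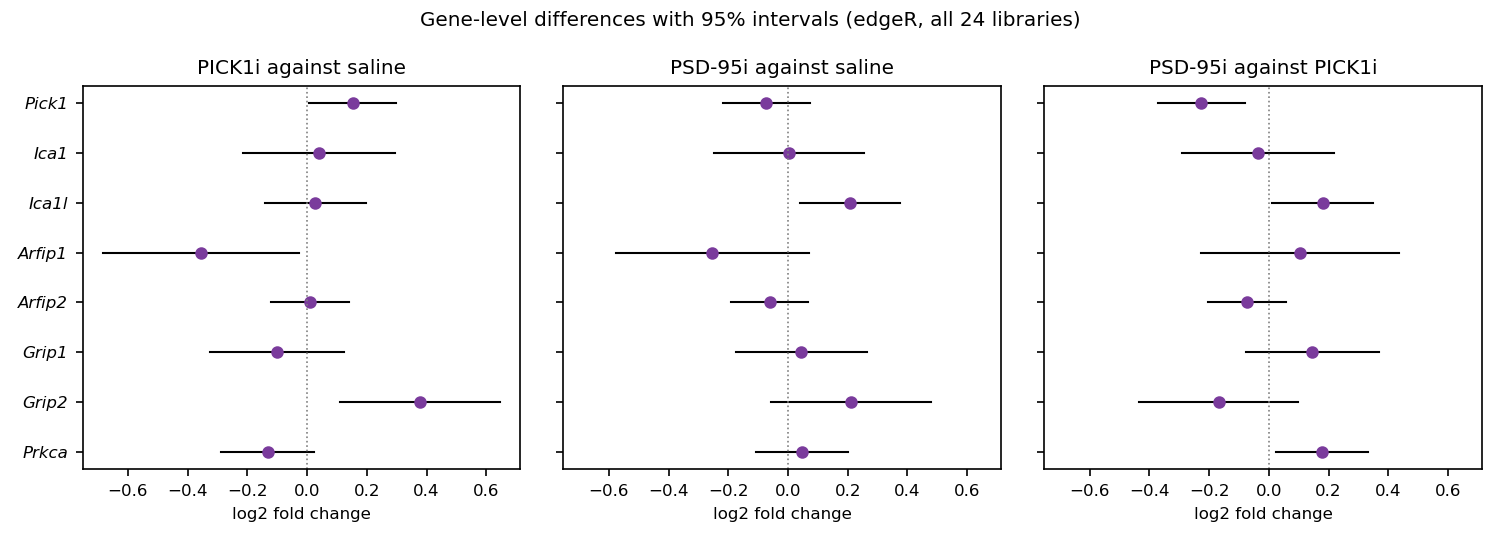
Log2 fold change (horizontal axis; points) of each gene with its 95% interval (lines) in the 3 comparisons, from one edgeR fit to 24 libraries. The points furthest from 0 are Grip2 at 0.38 and Arfip1 at -0.36 for PICK1i against saline, and no gene passes the adjusted threshold of 0.05.

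Pick1 itself was highest in the PICK1i group, by a margin that did not pass the test. It ranged from 58.3 to 76.3 CPM in saline (median 62.98), from 57.0 to 64.3 CPM in PSD-95i (median 60.8) and from 55.9 to 85.4 CPM in PICK1i (median 69.1). The PSD-95i libraries are tightly grouped, and the PICK1i libraries spread to both sides of them. The difference between PICK1i and saline was 0.15 ± 0.07 on the log2 scale (SE; 1.11-fold; 95% interval 0.01 to 0.30; adjusted p = 0.155, edgeR), with 6 of 8 PICK1i libraries above the saline mean. PSD-95i differed from saline by -0.07 ± 0.07 (adjusted p = 0.705) and from PICK1i by -0.23 ± 0.07 (edgeR adjusted p = 0.0679), with 8 of 8 PSD-95i libraries below the PICK1i mean.

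The upper end of the PICK1i range belongs to the libraries with a high mitochondrial share. Pick1 measured 68.0 to 85.4 CPM in those 4 libraries and 55.9 to 70.3 CPM in the other 4. Without them the difference between PICK1i and saline was -0.00 ± 0.07, and that between PSD-95i and PICK1i was -0.07 ± 0.07. Conversely, Pick1 passed the threshold for PICK1i against saline when PICK1i replicate 7, the lowest library, was left out (0.19, edgeR adjusted p = 0.0427), and for PSD-95i against PICK1i without PICK1i replicate 4 (adjusted p = 0.0370), without PICK1i replicate 7 (0.00874), without saline replicates 2 and 3 (0.0435) or by DESeq2 (0.0286). With the length tilt as a covariate, Pick1 differed by 0.01 ± 0.06 for PICK1i against saline (edgeR adjusted p = 0.952) and by -0.05 ± 0.07 for PSD-95i against PICK1i (adjusted p = 1.00).

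Ica1, whose product ICA69 dimerises with PICK1, had the closest group means of the set. Its medians were 20.1 CPM in saline (15.9 to 22.7), 19.1 CPM in PSD-95i (15.8 to 25.2) and 18.97 CPM in PICK1i (14.2 to 30.1). The groups overlap, with 4 of 8 PICK1i and 6 of 8 PSD-95i libraries inside the saline range. The highest value is that of PICK1i replicate 6, the library with the highest level of cortical markers. The log2 differences were 0.04 ± 0.12 for PICK1i against saline (95% interval -0.21 to 0.29; edgeR adjusted p = 0.863), 0.00 ± 0.12 for PSD-95i against saline (adjusted p = 0.997) and -0.04 ± 0.12 between the inhibitor groups (adjusted p = 0.895).

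Ica1l encodes the ICA69-like protein, which shares the BAR-type fold of ICA69. Its saline libraries ran from 32.0 to 50.1 CPM (median 40.5), its PICK1i libraries from 33.6 to 47.4 CPM (median 41.8) and its PSD-95i libraries from 45.1 to 48.4 CPM (median 47.2). The PSD-95i values thus form a narrow band near the top of both other groups. PSD-95i stood above saline by 0.21 ± 0.08 (1.16-fold; 8 of 8 libraries above the saline mean; edgeR adjusted p = 0.396) and above PICK1i by 0.18 ± 0.08 (8 of 8; adjusted p = 0.177), neither past the threshold. The libraries that stand apart are also those low for Ica1l. Saline replicates 2 and 3 held 32.3 and 32.0 CPM, against 38.2 to 50.1 CPM in the other saline libraries. PICK1i replicates 1, 2, 5 and 6 held 33.6 to 39.6 CPM, against 44.0 to 47.4 CPM in the other PICK1i libraries. Without saline replicates 2 and 3 the difference between PSD-95i and saline was 0.11 ± 0.07, and without the 4 PICK1i libraries that between PSD-95i and PICK1i was 0.04 ± 0.09.

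Arfip1 encodes arfaptin-1, a BAR-domain protein of the trans-Golgi that binds Arf and Arl1 GTPases. It reached 23.9 and 30.6 CPM in saline replicates 2 and 3, whereas the other saline libraries lay between 11.5 and 18.1 CPM, the PSD-95i libraries between 12.95 and 16.02 CPM and the PICK1i libraries between 8.90 and 17.5 CPM. The pair of libraries with pituitary transcripts was therefore above all other libraries for Arfip1. PICK1i differed from saline by -0.36 ± 0.16 (0.781-fold; edgeR adjusted p = 0.143) and PSD-95i from saline by -0.25 ± 0.16 (adjusted p = 0.545); without saline replicates 2 and 3 the values were -0.08 ± 0.12 and 0.02 ± 0.12.

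Arfip2, for the related arfaptin-2, showed the same pair of high libraries at a smaller distance. Saline replicates 2 and 3 held 94.6 and 91.9 CPM of Arfip2, the other saline libraries 70.0 to 79.9 CPM, PSD-95i 72.3 to 79.3 CPM and PICK1i 70.8 to 88.9 CPM. Group differences were 0.01 ± 0.06 for PICK1i against saline (95% interval -0.12 to 0.14; edgeR adjusted p = 0.930), -0.06 ± 0.06 for PSD-95i against saline (adjusted p = 0.726) and -0.07 ± 0.06 for PSD-95i against PICK1i (adjusted p = 0.516). These are the smallest standard errors of the set.

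Grip2, a multi-PDZ scaffold of AMPA receptors, came nearest to the threshold for PICK1i against saline. Saline libraries measured 16.4 to 34.9 CPM (median 25.8), PSD-95i libraries 22.8 to 33.6 CPM (median 30.1) and PICK1i libraries 26.6 to 45.4 CPM (median 31.8). Every PICK1i library was above the saline mean, yet 4 saline libraries lay within the PICK1i range, and the top value, 45.4 CPM, was again PICK1i replicate 6. The difference was 0.38 ± 0.13 (1.30-fold; 95% interval 0.11 to 0.65; edgeR adjusted p = 0.0634). It passed the threshold by DESeq2 (adjusted p = 0.0437), without saline replicate 5 (0.0299) and without saline replicate 7 (0.0433). The lowest saline values, 16.4 and 20.8 CPM, were those of replicates 2 and 3, and without these the difference was 0.24 ± 0.12. PSD-95i differed from saline by 0.21 ± 0.13 (adjusted p = 0.540) and from PICK1i by -0.17 ± 0.13 (edgeR adjusted p = 0.451).

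Grip1, the better-known paralog, was the least abundant of the 8 and showed no such offset. It measured 11.3 to 19.2 CPM in saline, 10.3 to 16.7 CPM in PSD-95i and 11.4 to 15.7 CPM in PICK1i. Its log2 differences were -0.10 ± 0.11 for PICK1i against saline (edgeR adjusted p = 0.567), 0.04 ± 0.11 for PSD-95i against saline (adjusted p = 0.901) and 0.15 ± 0.11 for PSD-95i against PICK1i (adjusted p = 0.428).

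Prkca encodes protein kinase C alpha, the kinase for which PICK1 was named. Saline libraries held 75.4 to 89.5 CPM (median 82.0), PSD-95i libraries 73.6 to 90.8 CPM (median 86.5) and PICK1i libraries 60.0 to 87.2 CPM (median 78.7). The low PICK1i values of Prkca, 60.0, 63.8 and 60.3 CPM, are those of replicates 1, 2 and 5, which have a high mitochondrial share, while replicate 6 stood at 86.6 CPM and the remaining PICK1i libraries at 77.3 to 87.2 CPM. PICK1i differed from saline by -0.13 ± 0.08 (edgeR adjusted p = 0.248), PSD-95i from saline by 0.05 ± 0.07 (adjusted p = 0.835) and PSD-95i from PICK1i by 0.18 ± 0.08 (adjusted p = 0.147). Without PICK1i replicates 1, 2, 5 and 6, Prkca differed by -0.00 ± 0.06 for PICK1i against saline and by 0.05 ± 0.06 for PSD-95i against PICK1i.

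The deposited transcript table resolves the 8 genes into 69 annotated transcripts, of which 43 had enough counts to test and 23 held at least 10% of their gene's counts. Labels come from GENCODE M21. Reads in exons that transcripts share are divided by estimation, so a share is an estimate and not a direct count of junctions. Prkca and Arfip1 were almost wholly protein coding in label: Prkca-201 alone took 92.6% of the Prkca counts, and the 3 Arfip1 transcripts are all coding. Pick1 was at the other end, with 53.4% ± 3.68 of its counts (SD, n = 24) on transcripts labelled retained intron and 44.5% ± 3.81 on protein-coding ones. Some transcripts are labelled as targets of nonsense-mediated decay, the pathway that removes mRNAs with early stop codons. These took 39.8% of the counts of Ica1, 37.4% of Grip2, 19.6% of Grip1 and 12.8% of Arfip2. With counts divided by transcript length they took 53.4% of Grip2, 36.8% of Ica1, 28.2% of Grip1 and 25.96% of Arfip2. By that measure Grip2 had the largest share of the 4, above its protein-coding transcripts at 46.6%.

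**Figure D3:**
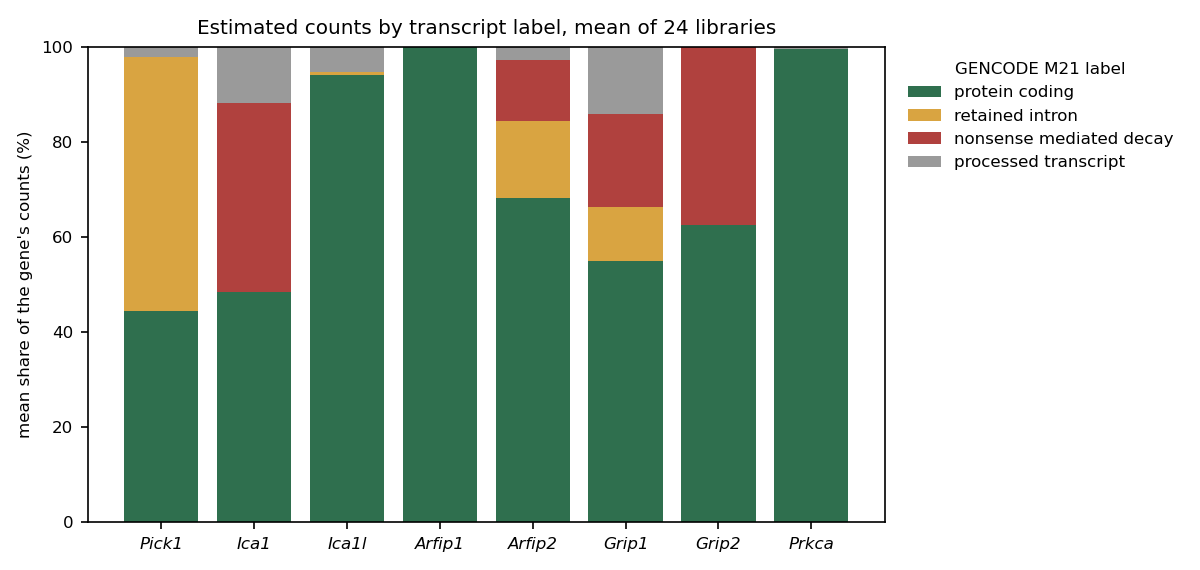
Mean share of each gene's estimated counts (vertical axis, %, from 0) by GENCODE M21 transcript label, over 24 libraries. Retained-intron transcripts hold 53.4% of Pick1 and 0% of Arfip1 and Prkca, and transcripts labelled nonsense mediated decay hold 39.8% of Ica1.

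The most counted Pick1 transcript, Pick1-210, held 38.7% of the counts. It has 3 exons at the 3′ end of the gene and keeps, whole, the intron of 836 bases at chr15:79247316-79248151 (GRCm38, plus strand), which lies between exons 10 and 11 of Pick1-205 and is intron 11 of Pick1-203; its last exon is shared with the coding transcripts. A further 5 retained-intron transcripts end inside that intron. Pick1-205 held 19.9% and Pick1-203 16.05%, and both encode the same coding length of 1248 bases. One row listed under Pick1 is named Gm49486-201 in GENCODE M21 (2.87% of the counts) and extends beyond the 3′ end of Pick1. The boundaries of the intron are shown because they mark off the most counted Pick1 transcript; the sequences are from GENCODE M21 transcripts on GRCm38, plus strand, and capitals mark the first and the last pair of intron bases.
Pick1 intron 11, 5′ splice site, chr15:79247296-79247355: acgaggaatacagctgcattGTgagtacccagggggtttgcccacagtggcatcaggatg
Pick1 intron 11, 3′ splice site, chr15:79248112-79248171: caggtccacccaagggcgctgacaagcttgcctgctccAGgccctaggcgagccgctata

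**Figure D4:**
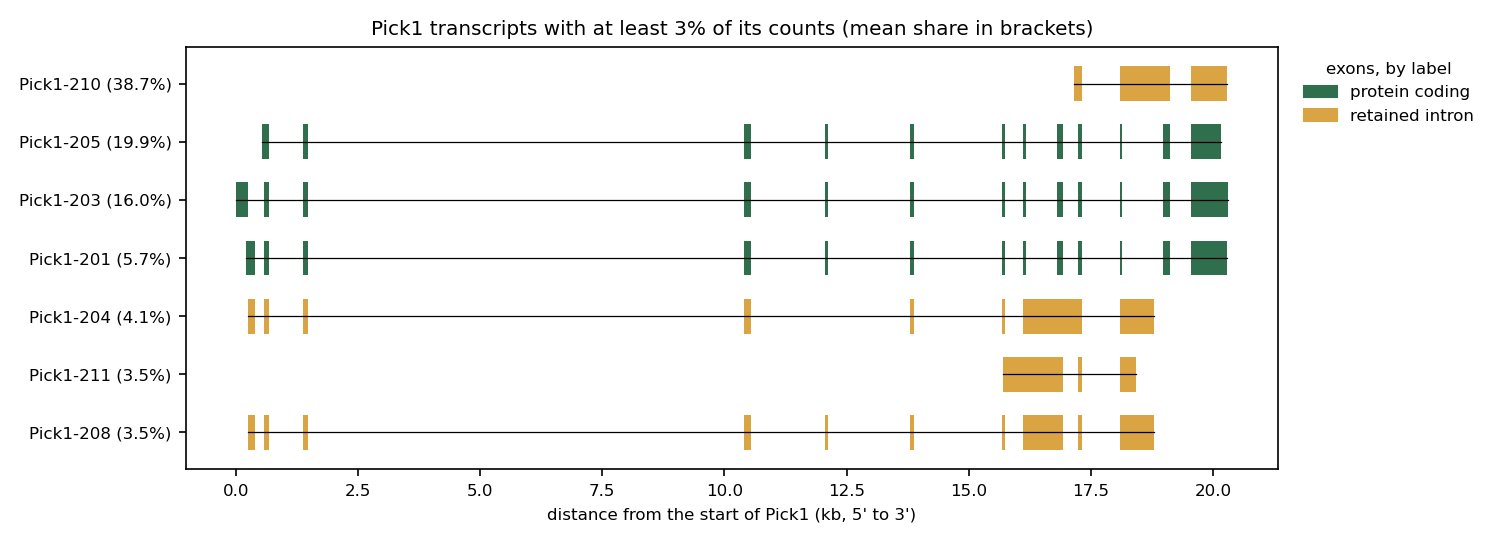
Exons (blocks) and introns (lines) of the Pick1 transcripts that hold at least 3% of its counts, drawn to scale by distance from the start of Pick1 (horizontal axis, kb), with the mean share in brackets. Pick1-210, at 38.7%, spans only the 3′ end and joins into one block the region that Pick1-205 and Pick1-203 split into exons around the retained intron.

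The Pick1-210 share was highest in the PICK1i group, within the spread of the libraries. It was 40.5% ± 4.22 (34.2% to 46.2%) in PICK1i, 38.4% ± 3.28 (34.3% to 43.3%) in saline and 37.2% ± 2.73 (31.1% to 40.1%) in PSD-95i (SD, n = 8 each). The differences were 2.02 percentage points for PICK1i against saline (p = 0.295, two-sided exact permutation test over 12870 splits, adjusted p = 0.434 over the 3 comparisons), -1.23 points for PSD-95i against saline (exact p = 0.434, adjusted 0.434) and -3.25 points for PSD-95i against PICK1i (exact p = 0.0889, adjusted 0.267). The share difference between PICK1i and saline was 1.20 points without PICK1i replicate 1 and 0.959 points without PICK1i replicates 1, 2, 5 and 6. It was 2.91 points without PICK1i replicate 6. That between PSD-95i and saline was -0.359 points without PSD-95i replicate 3, -0.529 points without saline replicate 2 and -1.82 points without saline replicate 3. Between PSD-95i and PICK1i it was -2.19 points without PICK1i replicates 1, 2, 5 and 6 and -2.38 points without PSD-95i replicate 3. Without PICK1i replicate 6 it was -4.14 points (exact permutation p = 0.0247, adjusted p = 0.0741). As a level, Pick1-210 stood at 29.2 ± 5.63 CPM in PICK1i, 24.9 ± 2.23 CPM in saline and 22.8 ± 2.07 CPM in PSD-95i. The edgeR transcript fit gave 0.22 ± 0.10 against saline for PICK1i (adjusted p = 0.164) and -0.35 ± 0.10 for PSD-95i against PICK1i (adjusted p = 0.0714). The coding transcripts Pick1-205 and Pick1-203 differed between PICK1i and saline by -0.03 ± 0.11 (adjusted p = 0.884) and 0.15 ± 0.11 (edgeR adjusted p = 0.448).

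Alternative coding exons separate the main transcripts of Ica1, Ica1l, Arfip1 and Grip2, and these exons are printed because the isoform shares turn on them. Each reads 5′ to 3′ on the minus strand of GRCm38, from GENCODE M21 transcripts. Ica1-212, which carries the nonsense-mediated decay label, held 39.8% of the Ica1 counts and lacks the exons of 47 and 63 bases that Ica1-201, Ica1-203 and Ica1-204 contain.
Ica1 exon 10 of Ica1-203, 47 bases, chr6:8656362-8656408: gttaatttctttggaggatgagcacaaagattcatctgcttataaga
Ica1 exon 11 of Ica1-203, 63 bases, chr6:8653630-8653692: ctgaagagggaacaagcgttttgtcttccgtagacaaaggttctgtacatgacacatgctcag
The transcripts with these exons took 35.9% ± 6.95 of the Ica1 counts in PICK1i, 34.6% ± 3.37 in saline and 32.2% ± 4.19 in PSD-95i, and the groups overlapped. With counts divided by transcript length they took 26.6%, 26.4% and 23.8% in the same order. Ica1-208, labelled processed transcript, held 11.3% of the Ica1 counts.

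Ica1l-205 includes an exon of 75 bases absent from Ica1l-206 and Ica1l-201, which held 49.2% and 23.1% of the Ica1l counts.
Ica1l exon of 75 bases, chr1:59995954-59996028: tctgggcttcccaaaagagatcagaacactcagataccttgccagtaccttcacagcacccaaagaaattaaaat
Ica1l-205 held 19.4% ± 2.90 of the counts in PICK1i, with replicate 6 lowest at 14.1%, 22.8% ± 2.00 in saline and 22.8% ± 2.91 in PSD-95i. With counts divided by transcript length, Ica1l-205 held 34.0%, 39.2% and 38.7% in the same order. The usage test, which asks whether a transcript differs from the other transcripts of its gene, did not call it for PICK1i against saline (edgeR adjusted p = 1.00).

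Arfip1-201, the most counted arfaptin-1 transcript at 58.2% of the counts, skips an alternative exon. Arfip1-202 includes this exon in a form of 75 bases and Arfip1-203 in a form of 96 bases. The capitals mark the 21 bases that only the longer form has.
Arfip1 exon of 96 bases, chr3:84529170-84529265: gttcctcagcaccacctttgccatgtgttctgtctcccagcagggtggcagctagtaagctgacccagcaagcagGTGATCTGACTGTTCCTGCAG
Both forms together held 41.3% ± 3.86 of the counts in PICK1i, 44.3% ± 4.51 in saline and 39.8% ± 5.35 in PSD-95i. The longer form held 16.1% ± 3.55, 20.2% ± 3.82 and 19.3% ± 3.95 in the same order. With counts divided by transcript length, both forms together held 55.9%, 59.3% and 54.8%, more than Arfip1-201.

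Grip2-205 and Grip2-204 contain an exon of 123 bases that Grip2-201, at 32.2% the most counted Grip2 transcript, lacks.
Grip2 exon of 123 bases, chr6:91782783-91782905: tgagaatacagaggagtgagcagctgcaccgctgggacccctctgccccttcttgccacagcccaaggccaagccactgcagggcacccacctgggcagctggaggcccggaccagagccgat
Transcripts with it took 58.7% ± 6.26 of the Grip2 counts in PICK1i, 54.5% ± 5.79 in saline and 53.4% ± 5.19 in PSD-95i. With counts divided by transcript length they took 32.1%, 27.9% and 28.3% in the same order, a minority of Grip2. In level, Grip2-205 stood at 10.6 ± 2.31 CPM in PICK1i and 7.76 ± 1.58 CPM in saline, a difference of 0.44 ± 0.14 (edgeR adjusted p = 0.0734), and Grip2-204 differed by 0.53 ± 0.20 (adjusted p = 0.118). No such exon was looked for in Arfip2, Grip1 and Prkca. Arfip2-202 and Arfip2-206 held 34.5% and 29.6%, while Grip1-212, Grip1-203, Grip1-206 and Grip1-209 held 21.8%, 19.6%, 14.1% and 10.8%.

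**Figure D5:**
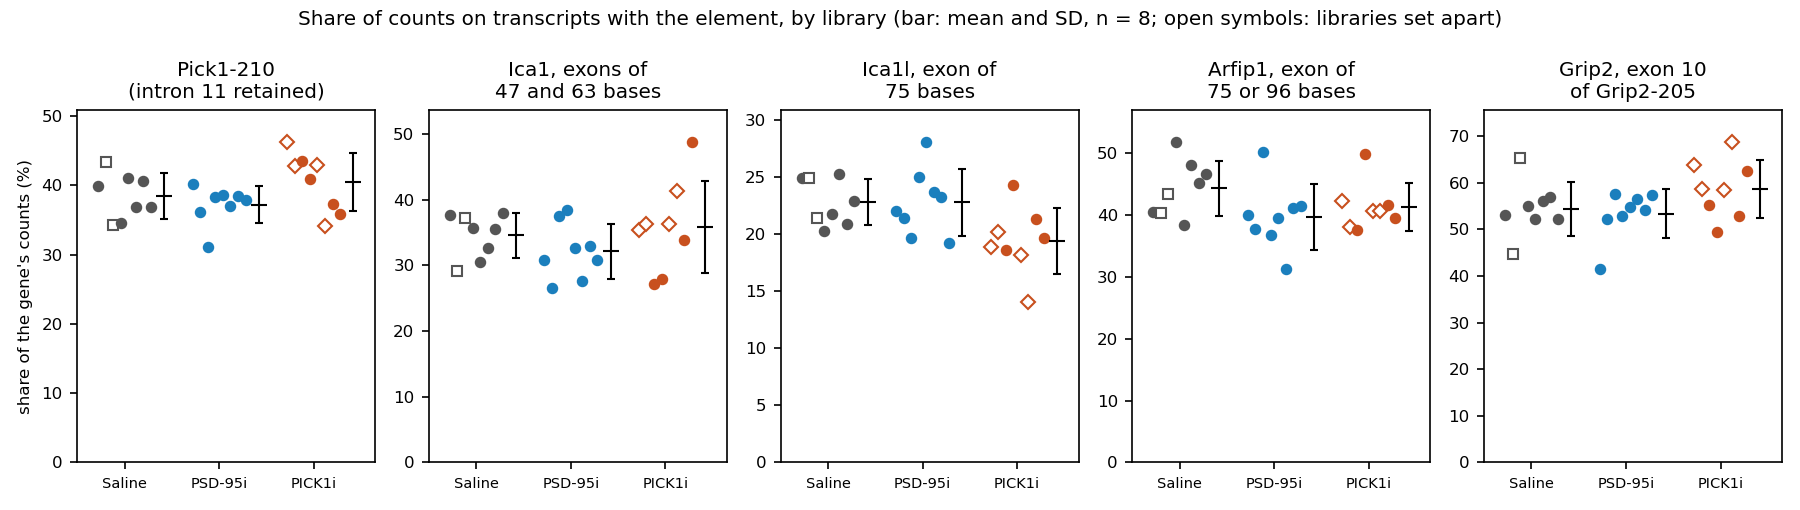
Share of each gene's counts (vertical axis, %, from 0) on transcripts with the named intron or exon, in every library of the 3 groups, with the mean and SD (n = 8); open symbols are saline replicates 2 and 3 and PICK1i replicates 1, 2, 5 and 6. All groups overlap, and the Pick1-210 share runs from 31.1% to 46.2%.

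None of the 43 tested transcripts passed the test of level in any comparison (smallest adjusted p 0.0734, 0.641 and 0.0714 by edgeR), where 2% of all transcripts were called for PICK1i against saline (760 of 37955) and 0% in the other comparisons. Before adjustment, 7, 3 and 5 of the 43 had p under 0.05, against 23.3%, 7.29% and 21.3% of all transcripts; DESeq2 called Grip2-205 for PICK1i against saline and Pick1-210 for PSD-95i against PICK1i. Leaving out 1 library also gave edgeR calls of level. Against saline these were Grip2-205 without PICK1i replicate 4, Grip2-205, Pick1-210 and Grip1-203 without PICK1i replicate 7, and Arfip1-203 without PICK1i replicate 8. Between the inhibitor groups they were Pick1-210 and Ica1l-205, each without PICK1i replicate 4 and without replicate 7. The usage test called 0 of 43 in every comparison, beside 0.00643% (2 of 31084), 0% and 0.00965% of all transcripts tested; 1, 0 and 1 of the 43 had an unadjusted p under 0.05, against 6.74%, 0.553% and 6.96% of all, and the smallest adjusted p was 0.602, for Arfip2-209 in PICK1i against saline.

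Around the 8 genes, 8 lists of their known ligands, relatives and pathway partners hold 149 distinct tested genes. For PICK1i against saline 10 of these rose and 6 fell, 10.7% beside 9.15% of all genes (4.88% rose and 4.27% fell), and for PSD-95i against saline and PSD-95i against PICK1i none was called, as for all genes. All of these calls were lost without saline replicates 2 and 3, without PICK1i replicates 1, 2, 5 and 6, or with the length tilt as a covariate, where 5, 0 and 2 genes in all were called. For PSD-95i against PICK1i without saline replicates 2 and 3, where 1208 genes in all were called, 1 to 4 entries of each list were called.

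Of 20 tested ligands of the PICK1 PDZ domain, and of 18 GRIP ligands and motors, none passed. Prlhr, for the prolactin-releasing peptide receptor and present at a mean of only 1.40 CPM, differed by -0.82 ± 0.29 for PICK1i against saline (edgeR adjusted p = 0.0678) and by 1.00 ± 0.28 for PSD-95i against PICK1i (adjusted p = 0.0535). For Prlhr, PICK1i against saline passed the threshold without PICK1i replicate 7 (edgeR adjusted p = 0.0174) or saline replicate 7 (0.0341), and stood at -0.49 ± 0.32 without PICK1i replicates 1, 2, 5 and 6. Against saline, Tspan7, a tetraspanin that binds PICK1, differed in PICK1i by 0.18 ± 0.09 (edgeR adjusted p = 0.170), and Gria2, for the AMPA receptor subunit GluA2 that PICK1 and GRIP share as a ligand, by -0.01 ± 0.09 (adjusted p = 0.950). Fras1, for an extracellular matrix protein that GRIP1 binds, differed by 0.27 ± 0.09 (edgeR adjusted p = 0.0512), the value nearest to the threshold among the GRIP ligands, and Frem2, for a related matrix protein, by -0.43 ± 0.18 (adjusted p = 0.124). Of 12 other protein kinase C genes and adaptors none passed either, with Prkch at -0.86 ± 0.28 (adjusted p = 0.0529) and Pdpk1, for the kinase PDK1 that primes protein kinase C, at -0.32 ± 0.11 (adjusted p = 0.0539); DESeq2 called Fras1, Prkch and Pdpk1.

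Among 40 other BAR-domain genes 4 rose and 1 fell in PICK1i against saline, with a list median of -0.03 (all genes: -0.01). Acap3, an Arf GTPase-activating protein, rose by 0.19 ± 0.06 (edgeR adjusted p = 0.0388) and Srgap1, for an F-BAR GTPase-activating protein, by 0.33 ± 0.11 (0.0470), while Asap1, another Arf GTPase-activating protein, fell by 0.25 on the log2 scale (0.0418); Fcho1 also rose. Of 14 small GTPases and regulators tied to arfaptins, ICA69 and PICK1, Arf5 rose by 0.27 ± 0.08 (0.0340) and Git1, an Arf GTPase-activating scaffold, by 0.29 ± 0.09 (0.0375), and Arfgef1, an exchange factor for Arf, fell by 0.29 (0.0267). Arl1, the GTPase that recruits arfaptins to the Golgi, was at -0.01 ± 0.08, Rab2a at -0.02 ± 0.05 and Rac1 at 0.05 ± 0.05, none past the threshold.

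Among 20 genes of dense-core granule biogenesis, the process in which PICK1 and ICA69 take part, 4 fell and none rose, with a list median of -0.07. Chgb, for the granule cargo chromogranin B, fell by 1.34 (edgeR adjusted p = 0.0335), Pcsk1 and Pcsk2, for prohormone convertases, by 0.77 (0.0360) and 0.38 (0.0420), and Ccdc186, for a trans-Golgi protein needed for granule maturation, by 0.34 (0.0283). Without saline replicates 2 and 3, which carry the pituitary transcripts, Chgb was at 0.05 and the list median at -0.0003. None of the 20 was called in that fit, where only 5 of 15820 genes were called in all, and the cause of the 4 falls was not tested. Of 10 genes of the Arp2/3 complex, the actin nucleator that PICK1 binds, Arpc1a and Arpc3 rose by 0.22 ± 0.05 (0.0191) and 0.22 ± 0.07 (0.0489). Of 21 AMPA receptor trafficking partners, Napa, for alpha-SNAP, rose by 0.21 ± 0.06 (0.0321) and Ap2m1, for a subunit of the clathrin adaptor AP-2, by 0.23 ± 0.07 (0.0415).

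Across the 24 libraries the 8 genes did not move as a unit. Pearson r of log2 CPM over their 28 pairs had a median of 0.10, from -0.56 for Arfip1 with Grip2 to 0.59 for Pick1 with Arfip2; Pick1 had r = 0.57 with Ica1 and -0.55 with Prkca. These correlations describe libraries that share groups, depth and the differences in RNA listed above, and carry no p. Among 11660 candidate genes, those most like each member over 24 libraries were Safb2 for Pick1 (r = 0.89), Bcat1 for Ica1l (0.91), Cdkn1b for Arfip1 (0.91), Panx2 for Grip2 (0.91), Secisbp2l for Prkca (0.89), Rpl22 for Arfip2 (0.85), Fcf1 for Ica1 (0.76) and Tulp4 for Grip1 (0.71). Next in order came Atxn2l and Wbscr22 for Pick1 (0.87 and 0.86), Nsf and Hdac11 for Ica1l (0.90 and 0.89), Smad4 and Angpt1 for Arfip1 (0.87 each), Cend1 and Tuba4a for Grip2 (0.90 each), Phf3 and Ttll4 for Ica1 (0.73 each), Kdelr1 and Gnb2l1 for Arfip2 (0.84 and 0.83), Sspn and Rorb for Grip1 (0.70 and 0.68) and Rragd and Tacc1 for Prkca (0.88 and 0.87).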

How the data were processed

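Messenger RNA of whole mouse hypothalamus was captured by poly(A) selection, made into stranded libraries and sequenced as paired reads of 52 bases. The authors deposited an estimated count, without normalization, for each gene and for each transcript. GRCm38, Salmon, STAR and bcl2fastq 2.20.0 appear, per the submitters' processing notes, without a stated role, and annotation release and strand setting were not given in the sources used here. Values were whole within 0.001 for 94.3% of gene entries and were rounded. Transcript labels, exons and lengths came from GENCODE M21, which covered 99.5% of the counts.

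Genes were kept with filterByExpr (minimum count 10), scaled by TMM and tested with edgeR 4.0.16 (quasi-likelihood, 24 libraries in 1 fit, 21 residual degrees of freedom, Benjamini-Hochberg over all genes tested, threshold 0.05). Transcripts were tested the same way, and transcript usage with diffSpliceDGE. The share of the most counted Pick1 transcript was compared by an exact permutation test. Log2 CPM used a prior count of 2, and errors on log2 fold changes are standard errors. Groups follow the treatment label, and no library pair was identical. Totals of 4762703 to 9228858 counts give the genes 54 to 817 counts a library.

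All 8 genes were named in every comparison, with transcripts of at least 10% of their gene; of each list up to 4 called genes, or the 2 with the smallest p; 1 called gene of these is not reported here. Genes named beyond this (Gria2, Fcho1, Arl1, Rab2a, Rac1) were chosen with values known. The likeness rule took, of genes with a mean of at least 5 CPM, the 3 with the largest r. The members, lists and tests were chosen with earlier results of these data known. Alternatives were RLE size factors, no filter, DESeq2 1.42.0, the replicate number as a block, fits of 2 groups, the length tilt as a covariate, and fits without the libraries that stand apart or without each library in turn. The tests were checked on simulated data. These counts were drawn independently around a common mean for each gene or transcript, with changes placed only above a minimum level. The simulated libraries did not differ in pituitary transcripts, length tilt or other deviations shared by many genes. The shares recovered therefore do not give the power in the real libraries. For 1.5-fold changes, the gene tests called 66% to 76%, the transcript tests 38% to 49% and the usage test 5 of 76. For 2-fold changes these were 92% to 93%, 74% to 76% and 43 of 85. The usage test was simulated for PICK1i against saline only. No change under 1.5-fold was simulated, so the power for smaller differences is not known.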

Additional observations from a re-analysis of the deposited data

Results flagged for a closer look

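In 5 of 39 groups of 8 libraries checked, 1 library lay further from its nearest neighbour than Dixon's 95% limit allows; chance alone flags about 1 group in 20. Pick1 stood at 6.26 log2 CPM in saline replicate 3, which also carries pituitary transcripts, and the next saline library was at 6.05. Grip1 stood at 3.41 log2 CPM in PSD-95i replicate 4, below the next library at 3.803. The share of Pick1 counts on the transcript that retains intron 11 was 31.1% in PSD-95i replicate 3, with the next library at 36.1%. The Arfip1 transcripts with the alternative exon took 49.95% in PICK1i replicate 4, with the next at 42.4%. The Grip2 transcripts with the alternative exon took 41.5% in PSD-95i replicate 1, with the next at 52.3%.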

How the results depend on the processing

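Of 768 refits of the 8 members, 714 kept direction and side of the threshold, 45 reversed in sign without passing it and 9 passed it; those 9 concern Grip2 for PICK1i against saline and Pick1 for both comparisons with PICK1i, and Grip2 also passed with the replicate block (adjusted p = 0.0367, edgeR). Same-numbered libraries of different groups showed little shared deviation (median r of 0.06, -0.0038 and 0.01, against 0.0019, 0.01 and -0.0007 for other numbers). The r was over 0.1 in 3, 2 and 0 of 8 pairs, and the own number was the best match for 1, 0 and 0. These values show no clear pairing by number but cannot exclude one. The block gave 19 called transcripts for PICK1i against saline and 0 called in usage in both comparisons with PICK1i; the Pick1-210 shares stayed short of the threshold with it (adjusted p = 0.344, exact sign flips over 256 arrangements).

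Counts over all features moved more than the members did, and the cause was not tested. Genes called for PICK1i against saline were 0 in a fit of the 2 groups, 5 without saline replicates 2 and 3, 0 without PICK1i replicates 1, 2, 5 and 6, and 2 with the length tilt; leaving out 1 library gave 299 (PICK1i replicate 5) to 2757 (PICK1i replicate 7), and the count also moved by over 1.5 times without PICK1i replicate 1, 2 or 6 or saline replicate 2, 3 or 4. For PSD-95i against PICK1i DESeq2 called 1359 genes and the fit without saline replicates 2 and 3 called 1208; leaving out 1 library gave 0 to 2315, with genes called without PICK1i replicate 3, 4, 7 or 8, saline replicate 2 or 3, or PSD-95i replicate 2. Transcripts called for PICK1i against saline were 2215 by DESeq2, 0 in a fit of the 2 groups, 0 without saline replicates 2 and 3, 0 without the 4 PICK1i libraries, and 0 (saline replicate 4 or PICK1i replicate 5) to 4277 (PICK1i replicate 7) with 1 library left out; 16 of the 24 omissions moved that count by over 1.5 times. For PSD-95i against PICK1i they were 1681 by DESeq2 and 0 to 4184 with 1 library left out (PICK1i replicate 7 the highest, replicate 4 the other above 0), and for PSD-95i against saline 67 with no filter and 0 to 3 with 1 library left out (saline replicate 7). Transcripts called in usage were 1 with no filter for PSD-95i against saline. For PSD-95i against PICK1i they were 0 with no filter, 12 without saline replicates 2 and 3 and 0 without the 4 PICK1i libraries; for PICK1i against saline they were 39 and 0 without those same libraries.

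Log2 differences that changed sign ranged in size from 0.0033 (Ica1, PSD-95i against saline) to 1.34 (Chgb, PICK1i against saline) before the change. The Ica1, PSD-95i against saline difference was -0.000301 with RLE size factors, -0.000373 by DESeq2, -0.0052 with the replicate block, -0.00216 in a fit of the 2 groups and -0.0621 to 0.0360 with 1 library left out. Without saline replicates 2 and 3, Ica1l in PICK1i against saline was -0.0744 and Chgb 0.0511, and Arfip1 and Arfip2 in PSD-95i against saline were 0.0232 and 0.0247. Without PICK1i replicates 1, 2, 5 and 6, Pick1 (-0.0019), Ica1 (-0.16) and Arfip2 (-0.0409) reversed against saline, and Ica1 (0.16) and Arfip1 (-0.11) in PSD-95i against PICK1i. With the length tilt, Ica1 (-0.13), Arfip2 (-0.0649) and Prkca (0.0032) reversed in PICK1i against saline, and Ica1 (0.18), Arfip1 (-0.0585) and Arfip2 (0.0233) in PSD-95i against PICK1i. With 1 library left out, PICK1i against saline ran from -0.0532 to 0.0964 for Ica1, from -0.0227 to 0.0788 for Ica1l and from -0.0186 to 0.0464 for Arfip2, and PSD-95i against PICK1i from -0.0989 to 0.0565 for Ica1. Depth limits Grip1 and Arfip1 most, at 54 to 206 counts a library.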
